A study of Mus musculus with 18 samples.

Results

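Genes that mark cholinergic neurons and spinal motor neurons were read in dorsal spinal cord of mice with and without an inflamed hindpaw. The 9 genes were Chat, Slc18a3 and Slc5a7 (acetylcholine synthesis and handling), Mnx1, Isl1 and Isl2 (motor neuron transcription factors), and Prph, Chodl and Calca (a filament, a lectin and a peptide of motor neurons). They were selected by name among the 34579 loci of each table, with the CFA and saline values of these tables already in view. Their differences between CFA and saline are therefore given as a description without a test. Where a name had several entries, the one with the highest mean over the 6 groups was read.

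The samples were dorsal spinal cord, segments L3-5, of 3-month-old C57BL/6 mice (C57BL/6N in the study's methods). Every mouse carried a recombinant adeno-associated virus (rAAV) injected into the spinal cord, which encoded LacZ (the control), HDAC4 wt (the wild-type histone deacetylase) or HDAC4 3SA (a mutant that stays in the nucleus). Within each vector, mice received intraplantar saline or complete Freund's adjuvant (CFA), which inflames the paw, and the tissue was taken 24 h later. Each of the 6 groups held 3 mice, 18 in all. The virus was injected on both sides of the dorsal horn, and was made to reach neurons there, while the promoter of these vectors is not given in the sources used here. The virus and the surgery were shared by all groups, the controls included.

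Acetylcholine is made from choline and acetyl-CoA by choline acetyltransferase, packed into vesicles by the vesicular acetylcholine transporter and, after breakdown in the cleft, recovered as choline by a high-affinity transporter. In the spinal cord the large somatic motor neurons of the ventral horn carry most of this machinery, and smaller cholinergic neurons lie around the central canal, in the intermediate zone and, sparsely, in the dorsal horn. LIM homeodomain and Mnx1 proteins specify motor neurons during development and remain at low levels in the adult.

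Each table gave 1 FPKM value per group (fragments per kilobase of transcript, corrected for library size), pooled by the authors over the 3 mice, without a value or error per mouse and without the depth of each library. No difference below was therefore compared with the spread between mice, and "higher" or "lower" refers to these pooled values alone. Differences between CFA and saline are given as the log2 ratio with 0.1 FPKM added to both values, and a log2 ratio beyond 0.5 in either direction served as a mark of size, not as a test. The tables of the 3 vectors were normalised in separate runs, so vector and run cannot be told apart wherever levels are set across vectors. Over 11083 loci the median difference of a group from LacZ saline on the log2 scale was at most 0.0242 (HDAC4 3SA saline). Mouse Hdac4 was at 7.41 and 7.72 FPKM in LacZ saline and CFA mice, 10.1 and 10.8 FPKM with HDAC4 wt, and 8.86 and 8.81 FPKM with HDAC4 3SA. Whether reads of the vector-encoded HDAC4 were counted at the mouse gene was not tested, so these values do not check the labels.

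The promoter stretches below are shown because Chat and Slc18a3 occupy the same locus, Prph had the group profile nearest to that of Chat, Isl2 was the only member with a cAMP response element in the searched window, and Calca was the member whose profile differed most from that of Chat. All 9 members were found among 32851 mouse promoters of RefSeq (GRCm38.p6). Each line gives the 200 bases before the transcription start, 5′ to 3′ on the strand of the gene, with matches on either strand in capitals. Chat is read from chr14:32465910-32466109 (minus strand), Slc18a3 from chr14:32464851-32465050 (minus strand), Prph from chr15:99054974-99055173 (plus strand), Isl2 from chr9:55540949-55541148 (plus strand) and Calca from chr7:114636358-114636557 (minus strand).
Chat: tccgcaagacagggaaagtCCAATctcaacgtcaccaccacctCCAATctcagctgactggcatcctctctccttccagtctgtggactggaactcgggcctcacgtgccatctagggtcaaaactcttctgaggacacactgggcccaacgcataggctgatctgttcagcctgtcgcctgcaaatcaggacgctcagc
Slc18a3: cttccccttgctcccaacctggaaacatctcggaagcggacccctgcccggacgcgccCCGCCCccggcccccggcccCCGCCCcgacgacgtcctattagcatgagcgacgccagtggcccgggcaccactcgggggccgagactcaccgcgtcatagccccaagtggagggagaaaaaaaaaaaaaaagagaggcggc
Prph: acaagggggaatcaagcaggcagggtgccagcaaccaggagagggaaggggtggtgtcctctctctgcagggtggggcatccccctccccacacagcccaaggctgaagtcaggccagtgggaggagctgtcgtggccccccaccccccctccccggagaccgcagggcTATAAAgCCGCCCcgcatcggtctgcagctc
Isl2: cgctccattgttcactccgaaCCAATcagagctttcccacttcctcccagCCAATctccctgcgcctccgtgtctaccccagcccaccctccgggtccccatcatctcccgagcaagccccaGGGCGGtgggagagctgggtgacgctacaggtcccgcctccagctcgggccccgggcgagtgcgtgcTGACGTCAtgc
Calca: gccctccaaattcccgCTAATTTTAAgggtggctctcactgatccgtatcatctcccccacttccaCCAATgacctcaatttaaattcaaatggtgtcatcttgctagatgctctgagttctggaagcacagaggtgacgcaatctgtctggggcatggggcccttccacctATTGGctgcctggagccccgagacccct

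In the 250 bases before the start, searched on both strands, the homeodomain core TAATTA was in none of the 9 member promoters and in 4.84% of all promoters. The cAMP response element TGACGTCA was found in Isl2 and in 1.55% of all promoters. The TATA box TATAAA was found in Prph and Slc5a7 and in 12.37% of all promoters. The GC box GGGCGG was held by 4 members (Slc18a3, Mnx1, Isl2 and Prph) against 32.74% of all promoters, and CCAAT by 5 (Chat, Mnx1, Isl1, Isl2 and Calca) against 33.85%. The MEF2 consensus, named here because HDAC4 is known to bind MEF2 factors, was matched in Calca and in 2.92% of all promoters. No motif was common to the members, whose GC content in this window ran from 45.6% to 71.2% against a median of 52.4% over all promoters. These matches describe letters and say nothing of which factors bind.

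The gene coordinates that follow are those of GENCODE M21 on GRCm38. Chat lies at chr14:32408203-32465989 on the minus strand. Slc18a3 is a gene of 1 exon at chr14:32462438-32464850 on the same strand, inside an intron of Chat, and its exon shares 0 bases with the exons of Chat. In the tables both names carry the same interval but separate values. Chat, choline acetyltransferase, was at 4.57 FPKM in saline and 5.97 FPKM in CFA mice with LacZ, 2.25 and 5.09 FPKM with HDAC4 wt, and 4.45 and 11.0 FPKM with HDAC4 3SA. It was higher after CFA in each vector, by log2 ratios of 0.38, 1.14 and 1.29. The HDAC4 wt saline group was the lowest and the HDAC4 3SA CFA group the highest, and CFA mice of the HDAC4 wt vector lay below those of LacZ.

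Slc18a3, the vesicular acetylcholine transporter, was at 10.4 and 13.9 FPKM in LacZ saline and CFA mice, 4.25 and 10.9 FPKM with HDAC4 wt, and 7.30 and 17.4 FPKM with HDAC4 3SA. Its log2 ratios were 0.41, 1.34 and 1.25 in the same vector order, and the sequence of the 6 groups from low to high was the same as for Chat. The ratio of Slc18a3 to Chat in FPKM ran between 1.58 and 2.32, lowest in HDAC4 3SA CFA mice and highest in LacZ CFA mice.

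Slc5a7, the high-affinity choline transporter (chr17:54273590-54299034, minus strand), was at 11.4 and 14.3 FPKM with LacZ, 5.61 and 11.6 FPKM with HDAC4 wt, and 7.27 and 12.6 FPKM with HDAC4 3SA. This gave log2 ratios of 0.31, 1.03 and 0.78. Its saline levels followed the order of Chat, but its highest group was LacZ CFA and not HDAC4 3SA CFA. All 3 genes of acetylcholine synthesis and handling were thus below a log2 ratio of 0.5 with LacZ and above it with either HDAC4 vector.

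The transcription factors were low, between 0.187 and 2.15 FPKM, so that small absolute differences weigh on their ratios. Mnx1, a homeodomain factor of motor neurons (chr5:29473034-29478470, minus strand), was at 0.603 and 1.07 FPKM with LacZ, 0.344 and 0.835 FPKM with HDAC4 wt, and 0.592 and 2.15 FPKM with HDAC4 3SA. The log2 ratios were 0.74, 1.07 and 1.70. Its ratio in LacZ mice was the only one of the 9 above 0.5 in that vector, and with 1 FPKM added in place of 0.1 no member passed 0.5 there.

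Isl2, a LIM homeodomain factor of motor and sensory neurons (chr9:55538672-55546180, plus strand), was at 0.468 and 0.645 FPKM with LacZ, 0.187 and 0.522 FPKM with HDAC4 wt, and 0.350 and 0.909 FPKM with HDAC4 3SA. Its log2 ratios were 0.39, 1.12 and 1.17, with the 6 groups in the order seen for Chat. The interval of this entry covered 86.9% of the annotated exon bases, and the RefSeq start used for the promoter above lies inside the longer GENCODE gene.

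Isl1, the related factor that is also found in sensory neurons and in some dorsal interneurons (chr13:116298281-116309689, minus strand), was at 0.800 and 0.921 FPKM with LacZ, 0.380 and 0.471 FPKM with HDAC4 wt, and 0.614 and 1.38 FPKM with HDAC4 3SA. The log2 ratios were 0.18, 0.25 and 1.06. Isl1 was the lowest of the 9 in LacZ and HDAC4 wt mice and the only member below 0.5 with HDAC4 wt. With 1 FPKM added in place of 0.1, Mnx1 (0.45) and Isl2 (0.36) were below 0.5 there too, and 6 of 9 members remained above it. Isl1 over Isl2 in FPKM was 2.03 in HDAC4 wt saline and 0.902 in HDAC4 wt CFA mice, and between 1.43 and 1.75 in the other 4 groups. In the HDAC4 wt table the mean of Isl1 and of Isl2 was below 0.5 FPKM, the minimum used for counts over all loci, so 7 of the 9 members passed it there and all 9 in the other tables.

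Prph encodes peripherin, an intermediate filament of neurons with axons in the periphery, sensory neurons included (chr15:99055174-99058978, plus strand). It was at 20.8 and 26.3 FPKM with LacZ, 8.81 and 21.9 FPKM with HDAC4 wt, and 15.6 and 43.5 FPKM with HDAC4 3SA. CFA over saline came to 0.34, 1.30 and 1.47 on the log2 scale. Prph kept the group order of Chat, and the ratio of the former to the latter stayed between 3.51 and 4.54 in the 6 groups.

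Chodl, chondrolectin, a membrane protein of fast motor neurons (chr16:78930948-78951733, plus strand), was at 9.35 and 12.0 FPKM with LacZ, 4.02 and 8.68 FPKM with HDAC4 wt, and 5.78 and 10.5 FPKM with HDAC4 3SA. These levels gave log2 ratios of 0.35, 1.09 and 0.85. As for Slc5a7, the highest group was LacZ CFA. Chodl was also lower in CFA mice with HDAC4 wt than in saline mice with LacZ.

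Calca encodes the peptides calcitonin and CGRP, the latter made by motor neurons and by many nociceptive sensory neurons (chr7:114631478-114636357, minus strand). Its levels were 15.5 and 20.4 FPKM with LacZ, 20.3 and 34.4 FPKM with HDAC4 wt, and 18.0 and 22.4 FPKM with HDAC4 3SA. The log2 ratios were 0.39, 0.76 and 0.31. Calca was lowest in LacZ saline mice and highest in HDAC4 wt CFA mice, an order unlike that of any other member. Calca over Chat ran from 2.03 in HDAC4 3SA CFA mice to 9.01 in HDAC4 wt saline mice.

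**Figure D1:**
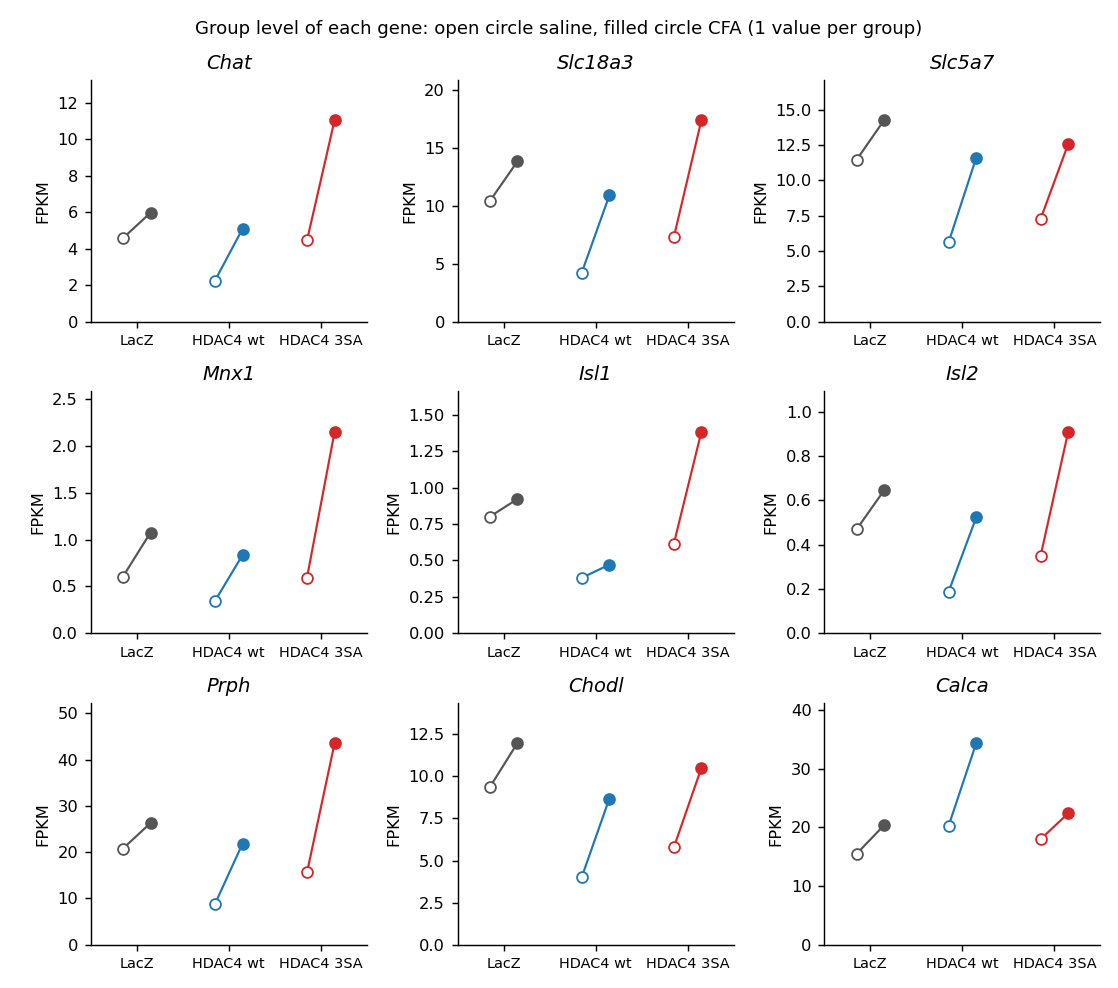
Level of each of the 9 genes in FPKM (vertical axis, from 0, scaled per gene) in saline mice (open circles) and CFA mice (filled circles) of the 3 vectors (horizontal axis), 1 pooled value per group of 3 mice, with no error available. The filled circle is above the open one in every panel, and the HDAC4 wt saline group is the lowest of the 6 in every panel but that of Calca.

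Set side by side, all 9 members were higher after CFA than after saline in each vector. In LacZ mice 1 of 9 was above a log2 ratio of 0.5 (Mnx1), against 5.14% of the 21440 loci with a mean of at least 0.5 FPKM. With HDAC4 wt 8 of 9 were above it, all but Isl1, against 10.7% of 22069 loci. With HDAC4 3SA 8 of 9 were above it, all but Calca, against 11.3% of 22036 loci. No member was below -0.5 in any vector, against 4.38% of loci with LacZ, 6.78% with HDAC4 wt and 5.92% with HDAC4 3SA. Because the genes were chosen on these same values, nothing is read from the difference between these shares.

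The median log2 ratio of the members was 0.38 with LacZ, 1.09 with HDAC4 wt and 1.17 with HDAC4 3SA, beside 0.00, 0.01 and 0.01 over all loci. The members were close together in LacZ mice, where their log2 ratios had an SD of 0.15 across genes and ran from 0.18 (Isl1) to 0.74 (Mnx1). They lay further apart with HDAC4 wt, with an SD of 0.33 and a range from 0.25 (Isl1) to 1.34 (Slc18a3), and with HDAC4 3SA, with an SD of 0.41 and a range from 0.31 (Calca) to 1.70 (Mnx1). Over all loci the SD was 0.42, 0.73 and 0.71 in the same order. Without Calca the members with HDAC4 3SA ran from 0.78 to 1.70. In LacZ mice the spread came from the genes below 1 FPKM, and the other 6 members ran from 0.31 to 0.41 with an SD of 0.0352. With HDAC4 wt 7 of the 9 lay between 1.03 and 1.34, and Isl1 and Calca below them. The members thus shared a sign in each vector, while their sizes differed in part. The lowest ratio was that of Isl1 with LacZ and HDAC4 wt and that of Calca with HDAC4 3SA.

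**Figure D2:**
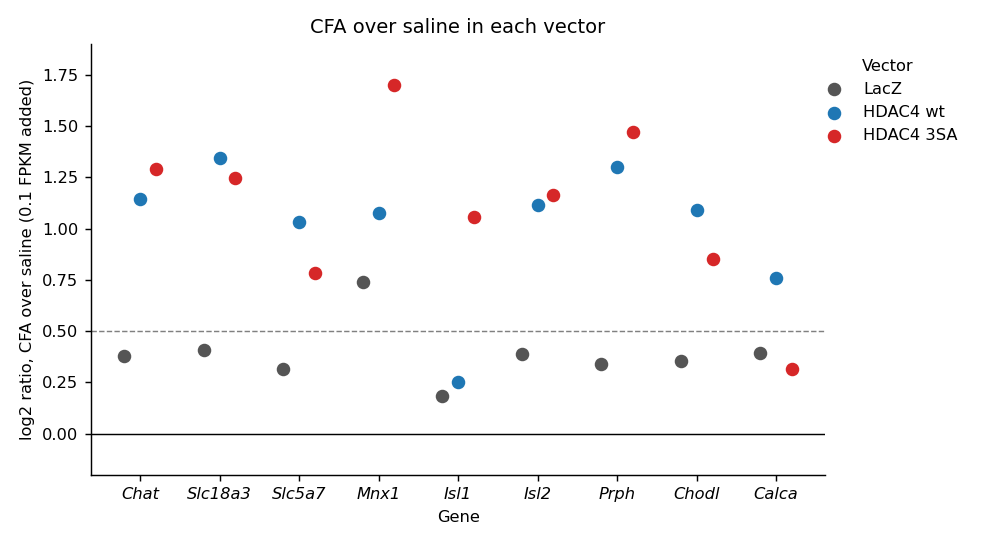
Log2 ratio of CFA over saline with 0.1 FPKM added (vertical axis) for the 9 genes (horizontal axis) in LacZ, HDAC4 wt and HDAC4 3SA mice (colours), 1 point per gene and vector; the dashed line marks 0.5. All points are above 0, the LacZ points lie between 0.18 and 0.74, and the 2 exceptions below the dashed line in the HDAC4 vectors are Isl1 (0.25, HDAC4 wt) and Calca (0.31, HDAC4 3SA).

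The log2 ratio was higher with HDAC4 wt than with LacZ for all 9 members, against 50.7% of 20111 loci. It was higher with HDAC4 3SA than with LacZ for 8 members, all but Calca (a difference of -0.08), against 49.8% of 19973 loci. Between the HDAC4 vectors the members were divided. The log2 ratio was higher with HDAC4 3SA than with HDAC4 wt for 5 of 9 (Chat, Mnx1, Isl1, Isl2 and Prph), against 50.7% of 20886 loci. Mnx1 and Isl1 were 0.63 and 0.81 higher with HDAC4 3SA, and Chat, Isl2 and Prph between 0.05 and 0.17 higher. Slc18a3, Slc5a7, Chodl and Calca were 0.10, 0.25, 0.24 and 0.44 lower with HDAC4 3SA than with HDAC4 wt. The direction of the smaller differences depended on the setting. With nothing added, Isl2 was at 1.38 with HDAC4 3SA and 1.48 with HDAC4 wt. Summed over all its entries, Prph was at 1.32 with HDAC4 3SA and 1.37 with HDAC4 wt. Relative to the pan-neuronal list described below, Slc18a3 was at 1.52 with HDAC4 3SA and 1.41 with HDAC4 wt. The difference between vectors was not tested, since each table gives 1 value per group.

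Levels are set across the separately normalised tables only side by side. In 8 of 9 members, all but Calca, the lowest of the 3 saline groups was HDAC4 wt, at 0.399 (Isl2) to 0.570 (Mnx1) of the LacZ saline level. The same group was the lowest at 32.9% of 21717 loci and for 7 of the 8 genes of the pan-neuronal list described below. In CFA mice these 8 members were at 0.512 (Isl1) to 0.853 (Chat) of the LacZ CFA level as deposited, but per 1000 FPKM of the pan-neuronal list 7 of them, all but Isl1, were above LacZ CFA, with Prph at 13.8 against 11.4. Calca was at 1.31 times the LacZ level in saline and 1.68 times in CFA mice with HDAC4 wt. On the pan-neuronal scale HDAC4 wt saline was still the lowest saline group for 8 of 9. The lowest saline group thus held on both scales, while the order of LacZ and HDAC4 3SA saline changed for Chat and Mnx1. The order of the CFA groups changed for all members but Isl1 and Calca.

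With HDAC4 3SA the same 8 members were at 0.618 (Chodl) to 0.982 (Mnx1) of the LacZ level in saline mice as deposited, but Chat and Mnx1 were above it on the pan-neuronal scale, at 2.37 against 1.92 and 0.315 against 0.254. In CFA mice Slc5a7 and Chodl were at 0.882 and 0.878 of the LacZ level, and Slc18a3, Isl1, Isl2, Prph and Chat between 1.26 and 1.85 times it, with Mnx1 above these at 2.15 against 1.07 FPKM. On the pan-neuronal scale all 9 members were above LacZ CFA, Slc5a7 (7.92 against 6.20) and Chodl (6.61 against 5.21) included. For Chat, Slc18a3, Mnx1, Isl2 and Prph the order of the 6 groups as deposited was identical, from HDAC4 wt saline through HDAC4 3SA saline, LacZ saline, HDAC4 wt CFA and LacZ CFA to HDAC4 3SA CFA. Neighbours in this order could not be separated by any error, and in bulk tissue fewer cells of a type and less RNA per cell cannot be told apart.

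Other genes known in motor neurons had lower median ratios than the members. Of 16 listed genes, 14 reached the minimum mean of 0.5 FPKM in LacZ mice, 13 with HDAC4 wt and 14 with HDAC4 3SA, and 2, 3 and 3 of them were above 0.5, with none below -0.5. The median log2 ratio was 0.09, 0.28 and 0.39. The urotensin peptide gene Uts2 was at 1.71 and 3.68 FPKM with LacZ, 4.33 and 11.8 FPKM with HDAC4 wt, and 3.95 and 15.3 FPKM with HDAC4 3SA, with log2 ratios of 1.06, 1.42 and 1.93. Uts2 was lowest in LacZ saline mice, as was Calca, whereas the other 8 members were lowest in HDAC4 wt saline mice. The 3 most abundant genes of the list differed less. Ret, a receptor for GDNF family ligands, had log2 ratios of 0.07, 0.31 and 0.47. Its co-receptor Gfra1 had 0.02, 0.14 and 0.11, and the synaptic vesicle gene Sv2b 0.05, 0.15 and 0.10.

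The neurofilament genes of large axons had lower median ratios than the members, at 0.08, 0.39 and 0.14. Nefh, the heavy subunit, was at 222 and 246 FPKM with LacZ, 96.0 and 153 FPKM with HDAC4 wt, and 144 and 185 FPKM with HDAC4 3SA, and was above 0.5 with HDAC4 wt alone (0.15, 0.67 and 0.36). Nefl, the light subunit, had log2 ratios of 0.08, 0.39 and 0.14. For both, the lowest of the 6 groups was HDAC4 wt saline, as for 8 of the members. The medium subunit Nefm was read only from fragments of 0.495 to 0.756 FPKM, with ratios of -0.13, -0.21 and -0.37.

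Of 9 genes of acetylcholine breakdown and choline supply, 1 was above 0.5 in each vector and none below -0.5. This was Slc10a4, a vesicular transporter of cholinergic and monoaminergic neurons, at 4.62 and 6.69 FPKM with LacZ, 2.29 and 5.43 FPKM with HDAC4 wt, and 3.42 and 7.20 FPKM with HDAC4 3SA. Its log2 ratios were 0.53, 1.21 and 1.05. Ache, acetylcholinesterase, which breaks acetylcholine down and is also made by non-cholinergic neurons, was between 36.2 and 50.2 FPKM with log2 ratios of 0.05, -0.06 and 0.02. The choline transporter gene Slc44a1 had log2 ratios of -0.06, 0.13 and 0.24, and Lynx1, a modulator of nicotinic receptors, had -0.07, -0.01 and -0.12.

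Of the nicotinic subunits of neurons, 4 reached the minimum mean with LacZ and 5 with either HDAC4 vector. None of these was beyond 0.5 in either direction, with medians of -0.02, -0.17 and -0.30. The main subunit genes Chrnb2, Chrna4 and Chrna7 had log2 ratios of -0.18, -0.21 and -0.32 with HDAC4 3SA. Of 4 muscarinic receptors, Chrm2 was between 11.4 and 18.1 FPKM with ratios of -0.04, -0.01 and -0.21, and Chrm5 was at -0.67 with HDAC4 3SA. Chrm3 was at 14.7 and 9.77 FPKM with LacZ, 9.27 and 11.1 FPKM with HDAC4 wt, and 4.57 and 10.4 FPKM with HDAC4 3SA, with ratios of -0.59, 0.25 and 1.17, while a second and lower entry of the gene had 0.10, -0.36 and -0.35. Of the muscle nicotinic subunits Chrnb1 alone was read, at 1.15 to 1.64 FPKM, with ratios of 0.16, 0.48 and 0.13.

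Lists of other cells of the dissected region were set beside the members. Of the interneuron genes of the ventral and intermediate cord 6, 5 and 7 reached the minimum in the 3 vectors and none was above 0.5. Their summed levels were 14.5 and 12.5 FPKM with LacZ, 11.9 and 12.1 FPKM with HDAC4 wt, and 13.5 and 14.8 FPKM with HDAC4 3SA. Foxp2, Gata2 and Lhx1, the most abundant of them, had ratios of 0.18, -0.09 and -0.13 with LacZ, 0.11, 0.18 and -0.47 with HDAC4 wt, and 0.30, 0.27 and -0.31 with HDAC4 3SA. Pkd2l1, a channel gene of neurons at the central canal, had -0.45, 0.39 and 0.49. The ventral interneuron genes are low in these tables, and their part in the member values was not tested.

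Dorsal horn neuron genes marked the labelled tissue and were 17 of 20 read. Their summed level was 484 and 600.2 FPKM with LacZ, 576 and 487 FPKM with HDAC4 wt, and 471 and 401 FPKM with HDAC4 3SA, so that the sum was higher after CFA in LacZ mice and lower in mice of either HDAC4 vector. Per gene 15 of 17 were higher after CFA with LacZ, 15 of 17 lower with HDAC4 wt and 16 of 17 lower with HDAC4 3SA, with medians of 0.21, -0.33 and -0.35. The opioid peptide gene Penk was at 144 and 179, 154 and 139, and 132 and 111 FPKM in the 3 vectors. Tac2, a tachykinin gene, had ratios of 0.35, -0.36 and -0.32, and Sst, somatostatin, 0.31, -0.40 and -0.25. With HDAC4 3SA 4 genes were below -0.5. The medians of the members and of the dorsal horn genes therefore had the same sign with LacZ and opposite signs with the HDAC4 vectors.

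Another scale shifts both lists of a vector by the same amount, and none of these 6 medians crossed 0 or 0.5 relative to genes expressed by neurons in general. These pan-neuronal genes had medians of 0.02, -0.06 and -0.27 and summed 2378 and 2298 FPKM with LacZ, 1690 and 1589 FPKM with HDAC4 wt, and 1879 and 1588 FPKM with HDAC4 3SA. Relative to this list, the dorsal horn median with HDAC4 3SA was -0.08 in place of -0.35 and the member median 1.44 in place of 1.17, while Calca with HDAC4 3SA passed 0.5, at 0.58 in place of 0.31. Over all genes of the 15 other lists with HDAC4 3SA, 9 were above 0.5 and 10 below -0.5 as deposited, and 24 above and 1 below relative to the pan-neuronal list.

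**Figure D3:**
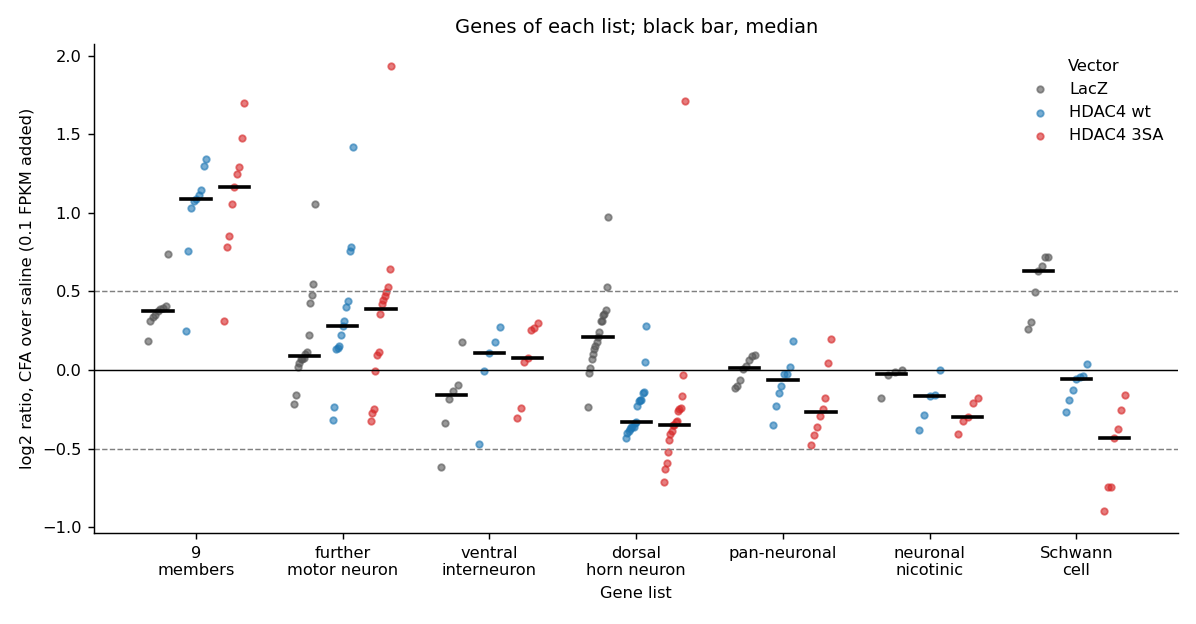
Log2 ratio of CFA over saline with 0.1 FPKM added (vertical axis) for the 9 members and for the genes of 6 other lists with a mean of at least 0.5 FPKM (horizontal axis), by vector (colours), 1 point per gene, with black bars at the medians and dashed lines at 0.5 and -0.5. The member medians are 0.38, 1.09 and 1.17 for LacZ, HDAC4 wt and HDAC4 3SA, while the dorsal horn medians are 0.21, -0.33 and -0.35.

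Sensory neurons of the dorsal root ganglion also express Calca, Prph, Isl1 and Isl2, and their RNA in a cord sample would come from attached ganglion or from axons. Of 14 listed sensory neuron genes 9 were read, and 5, 5 and 7 reached the minimum mean. The nociceptor channel gene Trpv1, singled out after its values were seen, was listed at 0 in HDAC4 3SA saline mice and at 0.421 FPKM in the CFA mice of that vector, the highest of the 6 groups. Of the list 0, 2 and 3 genes were above 0.5 and 0, 0 and 1 below -0.5. The list summed 68.2 and 84.7 FPKM with LacZ, 73.3 and 99.7 FPKM with HDAC4 wt, and 93.2 and 134 FPKM with HDAC4 3SA. Most of this sum was Sncg, gamma-synuclein, which other neurons express too, with ratios of 0.35, 0.42 and 0.60. Avil was at 3.16 and 9.96 FPKM with HDAC4 wt (1.62) and had ratios of -0.12 and 0.14 with LacZ and HDAC4 3SA. Pou4f1, also a dorsal horn gene, had 0.14, -0.27 and -0.32.

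Schwann cell genes, which report nerve root in the sample, were 7 of 8 read. The median ratio of the list was 0.63, -0.06 and -0.43, or 0.62, 0.01 and -0.16 relative to the pan-neuronal list, where the sign with HDAC4 wt flips. The members were above 0 in all 3 vectors on either scale. Skeletal muscle genes were present in every group and summed 22.2 and 45.8 FPKM with LacZ, 9.30 and 4.38 FPKM with HDAC4 wt, and 73.0 and 65.0 FPKM with HDAC4 3SA. Astrocyte genes summed 891 and 879 FPKM with LacZ, 1326 and 1599 FPKM with HDAC4 wt, and 1322 and 1644 FPKM with HDAC4 3SA. Much of this sum was Gfap, the filament gene of reactive astrocytes, at 389 and 415, 807 and 1025, and 805 and 1094 FPKM. Of the 6 astrocyte genes 2 were higher after CFA with LacZ, 6 with HDAC4 wt and 3 with HDAC4 3SA, with medians of -0.09, 0.17 and 0.10. Differences in the dissected tissue between groups were not tested for their part in the member values.

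Over the 6 groups, the profile of each gene was set against that of Chat as the root mean square difference of log2 levels, each gene centred on its own mean, among 14241 loci with a mean of at least 1 FPKM. The 5 nearest genes were Prph (0.13), Ahnak2 (0.16), Kcnj14 (0.19), Slc18a3 (0.22) and Slc10a4 (0.28), so 2 of the 5 were members. Ahnak2, a large scaffold protein gene, was at 10.6 and 14.4 FPKM with LacZ, 5.88 and 11.8 FPKM with HDAC4 wt, and 9.50 and 19.9 FPKM with HDAC4 3SA. Kcnj14, an inward rectifier potassium channel gene known in motor neurons, was at 3.58 and 5.57, 1.76 and 3.73, and 3.22 and 6.63 FPKM. Both had the group order of Chat in that HDAC4 wt saline was lowest and HDAC4 3SA CFA highest. Chodl ranked 15 and Slc5a7 25, while Calca ranked 8166, and Mnx1, Isl1 and Isl2 were below the minimum level for this ranking. These ranks rest on 6 values per gene and use the contrast by which the members were chosen, so they are a description.

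Nearest to Calca were Rap1b (0.08), Prrx2 (0.09), Perp (0.10), Dnah17 (0.11) and Bmp4 (0.12), none of them a member. Rap1b, a small GTPase gene, was at 760 and 901 FPKM with LacZ, 1016 and 1525 FPKM with HDAC4 wt, and 928 and 1079 FPKM with HDAC4 3SA. From the side of Calca, the members ranked between 12366 (Slc5a7) and 13383 (Prph) of the 14241 loci.

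**Figure D4:**
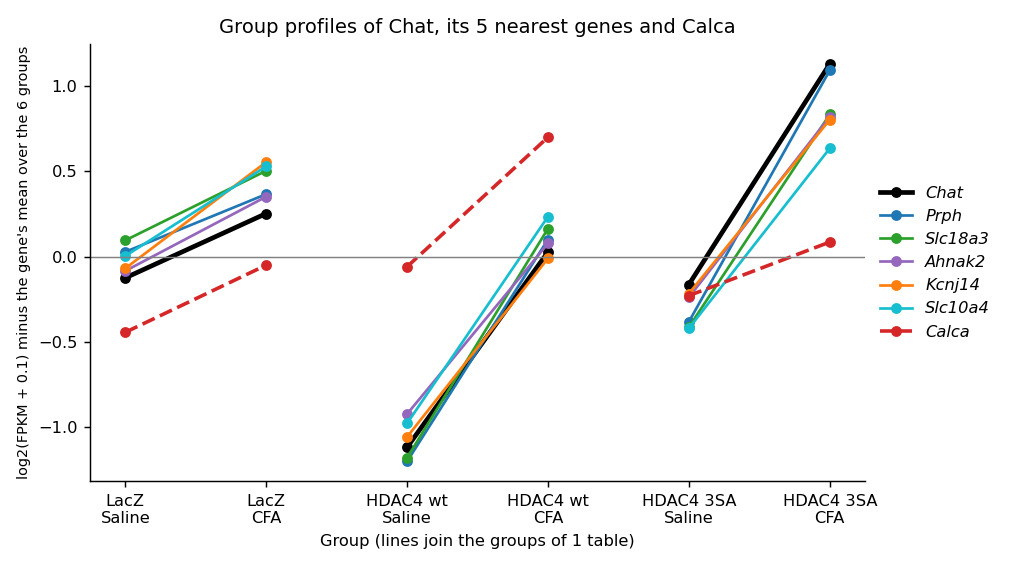
Log2 level with 0.1 FPKM added, minus the mean of the gene over the 6 groups (vertical axis), in the 6 groups (horizontal axis) for Chat, its 5 nearest genes and Calca; lines join the saline and CFA groups of 1 vector. Chat and its neighbours are lowest in HDAC4 wt saline mice and highest in HDAC4 3SA CFA mice, while Calca is lowest in LacZ saline and highest in HDAC4 wt CFA mice.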

How the data were processed

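Bulk RNA sequencing of dorsal spinal cord was read from 3 deposited gene tables, 1 per vector. Following the study's methods and the submitters' processing notes, the authors aligned reads of strand-specific poly-A libraries with TopHat and Bowtie to mouse (mm10, GRCm38) and estimated levels with Cufflinks and Cuffdiff. The deposited FPKM values are Cuffdiff group estimates over 3 mice. Values per mouse, counts and depth were not analysed here, so no test was made and no error can be given for a value. The tables also hold the authors' own fold changes, test statistics, p- and q-values and status calls, which were not used.

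For each member, and each gene of 15 further lists (133 genes, 114 read), the entry with the highest mean over the 6 groups was taken. The 386 entries whose name or place differed between tables were left out of lists and of comparisons across vectors. Log2 ratios used 0.1 FPKM as pseudocount, and shares over all loci, named or not, required the saline and CFA values of a table to average 0.5 FPKM or more. The members and lists were chosen with earlier results of these data known. Genes are named by a rule, namely all 9 members, the 3 most abundant genes of each list, list genes beyond a log2 ratio of 1 at a mean of at least 1 FPKM, and the 5 genes nearest in profile to Chat and to Calca. Some genes that this rule names are not reported here. Trpv1 was named outside it, after its values were seen. Entries with fragments or overlapping genes may share reads.

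Motifs were searched in RefSeq promoters of GRCm38.p6, and gene positions are those of GENCODE M21. Python 3.11.15 with pandas 2.3.3, numpy 2.4.6 and matplotlib 3.10.9 was used, and the ratio and profile steps were tested on simulated data. Other pseudocounts, centrings, filters, thresholds and the sum of all entries of a name were tried as alternatives.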

Additional observations from a re-analysis of the deposited data

How the results depend on the processing

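No paired analysis was possible because the tables hold 1 pooled value per group and no column per mouse. Leaving out single replicates and the replicate block were not run for the same reason. Under every alternative tried the log2 ratio of each member stayed above 0 (154 values, 0 below 0), and 122 of these moved by less than 0.1. None of these alternatives read a second entry of a gene alone. The second entries of Prph and Slc5a7, described below, were at -0.31 and -1.16 with HDAC4 3SA. With 1 FPKM added, the members above 0.5 with LacZ went from 1 to 0, the highest LacZ ratio was 0.38, 6 in place of 8 members were above 0.5 with HDAC4 wt, the HDAC4 wt median was 0.91 with extremes of 0.0922 and 1.22, the HDAC4 3SA median 0.76 with a highest value of 1.42, and 1 in place of 2 list genes was below -0.5 with LacZ. With nothing added, the highest values were 1.48 with HDAC4 wt and 1.86 with HDAC4 3SA. Members of at least 1 FPKM alone gave 0 above 0.5 with LacZ, a LacZ range of 0.31 to 0.41 with an SD of 0.0352, and with HDAC4 wt a lowest value of 0.76 and an SD of 0.21. Summing all entries of a name gave a highest LacZ value of 0.87. At a threshold of 1, no member passed with LacZ (0), and 5, 3 and 5 list genes were above it (15, 7 and 9 at 0.5) with 0 below with LacZ and 0 with HDAC4 3SA (2 and 10 at 0.5). Without the minimum mean, 7 list genes were below -0.5 with LacZ and 9 with HDAC4 wt (2 and 5 with it). Relative to the pan-neuronal list, whose median was -0.27 with HDAC4 3SA, the member median there was 1.44, and 24 list genes were above 0.5 and 1 below -0.5. The cause of these shifts is the setting itself for the added constant, the filters and the thresholds. For the centring the cause was not tested. The tables give no depth per library, and the study's methods give only a minimum for all. The lowest members (Mnx1, Isl1 and Isl2) moved most with the added constant with HDAC4 3SA.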

Other observations

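Prph and Slc5a7 each had a second entry over the same interval, lower than the entry read above, and the files used here do not say which transcripts each entry holds. The second Prph entry was at 5.40 and 7.26 FPKM in LacZ saline and CFA mice, 1.35 and 4.59 FPKM with HDAC4 wt, and 2.54 and 2.03 FPKM with HDAC4 3SA. Its log2 ratios were 0.42, 1.69 and -0.31, so it was lower after CFA with HDAC4 3SA, where the entry with the higher level was at 1.47. The second Slc5a7 entry was at 2.48 and 2.71 FPKM with LacZ, 0.469 and 2.31 FPKM with HDAC4 wt, and 0.715 and 0.265 FPKM with HDAC4 3SA, with log2 ratios of 0.12, 2.08 and -1.16. In HDAC4 3SA CFA mice the second entry held 4.66% of the level of the first for Prph and 2.11% for Slc5a7, against 27.6% and 19.0% in LacZ CFA mice.

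Mnx1 had 2 further entries that lie outside the annotated gene, at 0.0282 to 0.453 FPKM. Their log2 ratios were 0.36, 1.08 and 1.27 for the one and 1.26, 0.56 and 1.42 for the other, all above 0 like that of the gene itself.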
